A study of Mus musculus with 10 samples.

Results

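Med24, Gtf2f2, Mnat1 and Ccnk encode proteins that RNA polymerase II needs to start transcription and to elongate. Every row for these 4 genes was taken from the 10 deposited tables of intronic polyadenylation (IPA) sites, which gave 10 rows of 2311 and 4 genes of 1453. The rows describe 5 sites: 2 in Med24 and 1 in each of the other genes. The choice rested on gene names and not on the direction or size of any change, although earlier results of these data were known when it was made.

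Transcription of a protein-coding gene begins when Mediator, a large coactivator complex, links activators to polymerase II and the general transcription factors. Med24 is a subunit of the Mediator tail. Gtf2f2 is the small subunit of TFIIF, which accompanies the polymerase into the preinitiation complex. Mnat1 holds together the CDK-activating kinase of TFIIH, which phosphorylates the polymerase tail at the start of transcription. Ccnk, cyclin K, activates Cdk12 and Cdk13, kinases that phosphorylate the same tail during elongation. An IPA site ends a transcript inside an intron, so the RNA lacks the exons that follow. U1 snRNA, the RNA of the particle that recognises 5′ splice sites, is known to restrain cleavage at such sites.

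The libraries came from cultured mouse mammary tumour lines of one family, 2 libraries in each of 5 groups. 4T1-U1-ASO cells were 4T1 cells that received an antisense morpholino against U1 snRNA with a delivery reagent in the medium. 4T1 and 4T07 are labelled invasive and called metastatic in the series design, and 67NR and 168FARN are labelled non-invasive and called non-metastatic. The design names a mock transfection as the control of the morpholino, while the labels of the 4T1 libraries record no treatment. Invasive and non-invasive groups are 2 cell lines each, so a difference between lines cannot be told apart from any other difference between those lines. Whether replicate libraries stand for separate cultures is not labelled, and p-values therefore measure a spread that may be technical. The 4T1 libraries serve in 3 comparisons, and 4T07, 67NR and 168FARN serve in 2 each, so results that share libraries are not independent.

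The deposited peak lists held 1427728 to 3347776 reads a library, and the smallest list, that of 67NR replicate 2, covered 10 chromosomes, including those of the 4 genes. Of marker genes for the cells a culture could hold, 2 of 5 epithelial genes, 4 of 5 mesenchymal genes and 0 of 3 macrophage genes appear in the tables. The tables list only sites that changed, so a gene that is not listed is not shown to be silent. Spint2, an epithelial protease inhibitor, differs strongly between the lines: its last-exon columns give 963 and 965 reads in 4T1, 730 and 849 in 4T07, 5 and 0 in 67NR and 0 and 0 in 168FARN. Of the mesenchymal genes, Twist2 was listed in each comparison between lines, with log2 changes of IPA relative to the last exon of 1.53 to 3.83. Prrx1 had 0.98 in 4T1 against 168FARN, and Sparc had -1.73 in 4T07 against 67NR. These ratios do not give the expression of the 3 genes. The part of such differences between lines in the results below was not tested.

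IPA usage is the percentage of a gene's reads, from site and last exon together, that fall on the site, and the depth of a library cancels in it. The authors' deposited tables list a site only at an adjusted p of at most 0.1, and 0.05 is used below as the threshold. With 2 libraries against 2, an exact two-sided permutation test of usage cannot go below p = 0.333, so usage is given as a description. Usage did not overlap between the groups in 10 of 10 rows, but neither did it in 99.7% of all listed rows, because the tables were selected for such sites. In the authors' deposited tables, 9 of 9 rows between lines had lower IPA relative to the last exon in the metastatic line, and 7 of the 9 passed 0.05. The row under U1-ASO was higher and passed. Those directions are the common ones: 76.2% of listed sites were lower in 4T1 against 67NR, 82.2% in 4T07 against 67NR, 75.3% in 4T1 against 168FARN and 79.6% in 4T07 against 168FARN, and 87.6% were higher in 4T1-U1-ASO.

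**Figure D1:**
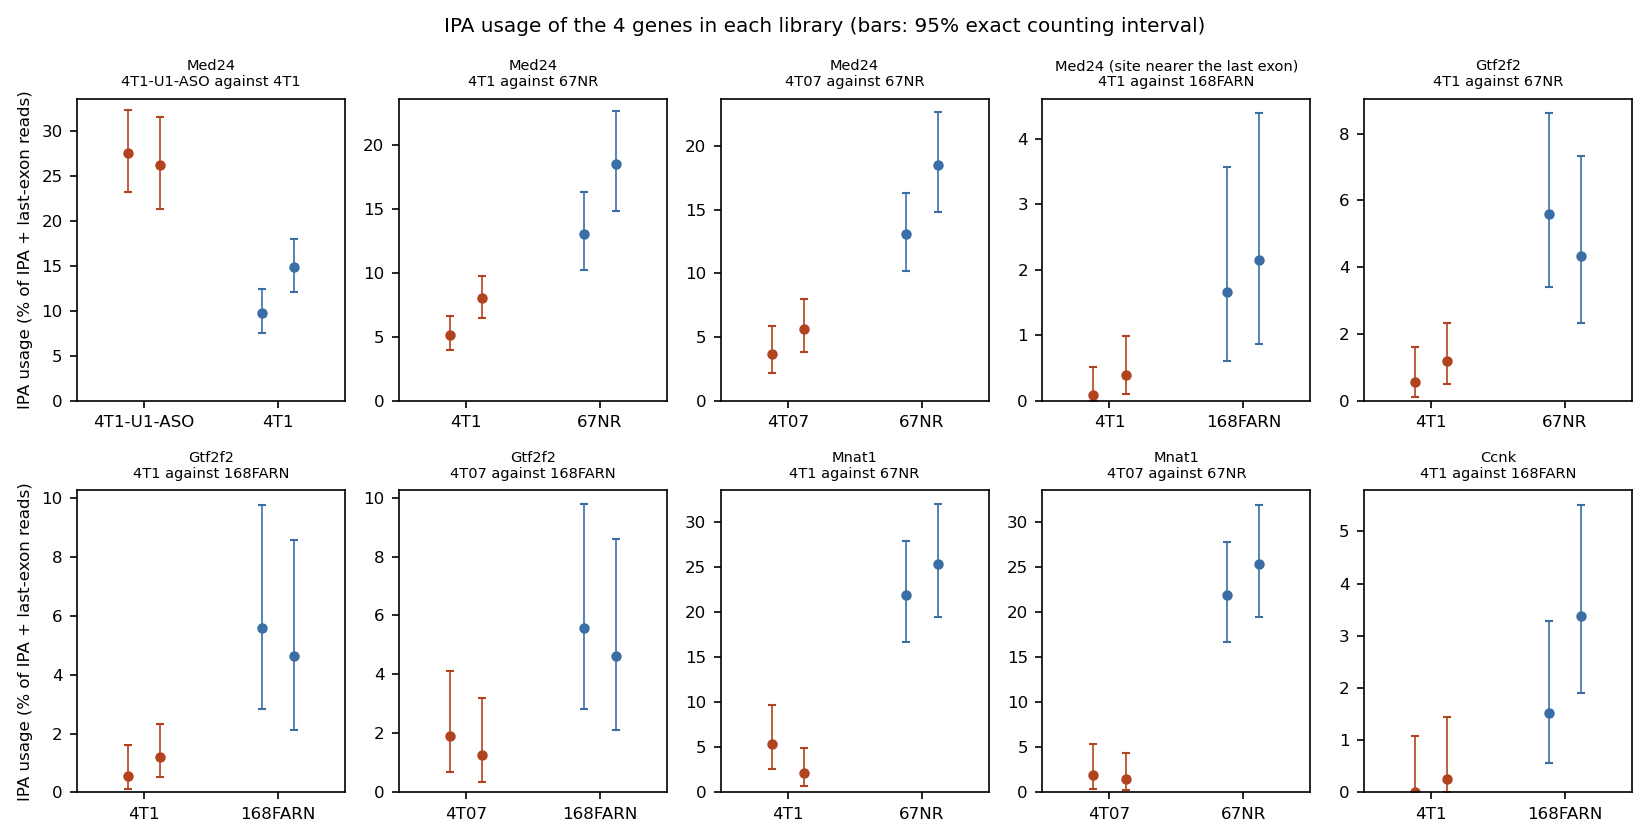
IPA usage in percent of IPA and last-exon reads for the 10 rows of the 4 genes; each point is 1 library, bars are exact (Clopper-Pearson) 95% intervals that cover counting error only, and the y axes differ between panels. The 2 libraries of each group lie on the same side of the other group in all 10 panels, and Mnat1 shows the widest gap, with 1.54% to 5.38% in 4T1 and 4T07 and 21.9% to 25.4% in 67NR.

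Med24 was the member listed under U1 antisense treatment, at a site on chromosome 11 from 98573205 to 98573627 on the minus strand (mm9). The site is intronic on the authors' word, since no mm9 annotation was used here. Usage was 27.6% and 26.2% in the 4T1-U1-ASO libraries and 9.80% and 14.8% in the 4T1 libraries. The means were 26.9% ± 0.992 in 4T1-U1-ASO and 12.3% ± 3.56 in 4T1 (SD, n = 2 each). The authors' deposited table gives a log2 fold change of 1.31 with a standard error of 0.46 and an adjusted p of 0.044, and 59.3% of its 1561 sites passed 0.05 (51.6% as higher and 7.62% as lower). By size it ranked 1207 of the 1368 higher sites, whose median was 1.93.

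Site and last exon of Med24 were also read separately. The IPA site held 107 and 78 reads in 4T1-U1-ASO and 59 and 89 reads in 4T1, and these ranges overlap. Its last exon held 281 and 220 reads in 4T1-U1-ASO and 543 and 511 reads in 4T1, with no overlap. In edgeR's quasi-likelihood test with the authors' size factors, IPA reads changed by -0.25 ± 0.28 (log2 ± SE, adjusted p = 0.409), and last-exon reads fell by 1.69 ± 0.24 on the log2 scale (adjusted p = 0.000910). IPA reads passed at 69.2% of listed sites and last-exon reads passed in 64.3% of listed genes, 54.9% lower. The direction of the IPA reads rests on scaling: in a fit over 18282 peaks that all 4 libraries list, scaled by TMM, the site had a log2 change of 0.24 ± 0.28 (edgeR, adjusted p = 0.561). Median peak changes were -0.43 with the authors' size factors and 0.05 with TMM. In the TMM fit the last-exon peak of Med24 also fell, by 1.18 ± 0.21 on the log2 scale (edgeR, adjusted p = 0.0106), where 25.4% of peaks passed, 12.3% as higher and 13.0% as lower. Scaled by totals, which put the median peak at 0.32, the last exon changed by -0.91 ± 0.20 (edgeR, adjusted p = 0.0231) and the site by 0.50 ± 0.28 (0.234), so how the change divides between site and last exon rests on scaling. Without 1 library, the log2 change of the last-exon peak ran from -1.37 to -1.01 with TMM. The call did not hold in all of these fits, where fewer of all peaks passed too. Last-exon reads with the authors' size factors ran from -1.92 to -1.41 without 1 library.

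Between the lines, the same Med24 site was listed against 67NR, with its left edge at 98573191. In 4T07 it held 17 and 29 reads, against 65 and 74 in 67NR, while the last-exon column gave 444 and 486 reads in 4T07 and 433 and 326 in 67NR. IPA reads were low in both 4T07 libraries, and the last-exon reads lay somewhat higher there. Mean usage came to 4.66% ± 1.37 in 4T07, against 15.8% ± 3.85 in 67NR (SD, n = 2 each), and the authors' deposited table gives a log2 fold change of -1.62 with an adjusted p of 0.002. In this comparison 79.4% of 214 listed sites passed, 67.3% lower. IPA reads fell by 1.41 ± 0.31 on the log2 scale (edgeR, adjusted p = 1.3e-05), as they did at 73.7% of listed sites (86.4% passed). In the TMM fit over shared peaks the site fell by 1.30 ± 0.30 (edgeR, adjusted p = 0.00906), but did not pass without 4T07 replicate 1 (0.110). Last-exon reads rose by 0.48 ± 0.17 (edgeR, adjusted p = 0.0400, 40.5% of genes higher), a call that ended when either 4T07 library (edgeR, adjusted p = 0.287 and 0.152) or 67NR replicate 2 (0.0653) was left out.

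In 4T1 against 67NR the site in Med24 moved differently. Site reads overlapped, at 59 and 89 in 4T1, against 65 and 74 in 67NR. Its last-exon column gave 1086 and 1023 reads in 4T1, against 433 and 326 in 67NR, far apart. Mean usage stood at 6.58% ± 2.02 in 4T1, against 15.8% ± 3.85 in 67NR (SD, n = 2 each). The authors' deposited table gives -1.19 on the log2 scale and an adjusted p of 0.083, which misses the threshold that 67.2% of its 122 sites passed (50.8% lower). Last-exon reads rose by 1.81 ± 0.20 on the log2 scale (edgeR, adjusted p = 1.3e-15), as they did in 37.6% of listed genes (63.2% passed). IPA reads changed by 0.41 ± 0.23 (edgeR, adjusted p = 0.123), where 85.0% of sites passed. With TMM scaling, IPA reads passed as higher in 4T1 (log2 0.63, edgeR, adjusted p = 0.0280).

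Peak lists show this Med24 site in all 10 libraries, including those of comparisons that do not list it. From peak reads, usage was 27.6% and 26.2% in 4T1-U1-ASO, 9.80% and 14.8% in 4T1, 7.11% and 10.7% in 4T07, 23.0% and 31.2% in 67NR, and 20.9% and 14.5% in 168FARN. In order, the group means were 27.1% ± 5.78 in 67NR, 26.9% ± 0.992 in 4T1-U1-ASO, 17.7% ± 4.51 in 168FARN, 12.3% ± 3.56 in 4T1 and 8.89% ± 2.51 in 4T07 (SD, n = 2 each). 67NR and 4T1-U1-ASO, 168FARN and 4T1, and 4T1 and 4T07 are neighbours whose libraries overlap. In 4T1 against 168FARN, which does not list this site, site reads were 59 and 89 in 4T1 and 47 and 27 in 168FARN, and last-exon peak reads were 543 and 511 in 4T1 and 178 and 159 in 168FARN. There the last-exon peak rose by 1.88 ± 0.20 on the log2 scale (edgeR with TMM over 17438 shared peaks, adjusted p = 0.000940). The site had a log2 change of 1.20 ± 0.36 and did not pass (edgeR, adjusted p = 0.0551). It passed without 4T1 replicate 1, 4T1 replicate 2 or 168FARN replicate 1 (edgeR, adjusted p = 0.000635, 0.0238 and 0.0317) and not without 168FARN replicate 2 (0.322). In 4T07 against 168FARN, which does not list it either, the site had a log2 change of -0.62 ± 0.37 (edgeR, adjusted p = 0.231), and passed as lower without 168FARN replicate 2 (-1.02, edgeR, adjusted p = 0.0128).

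**Figure D2:**
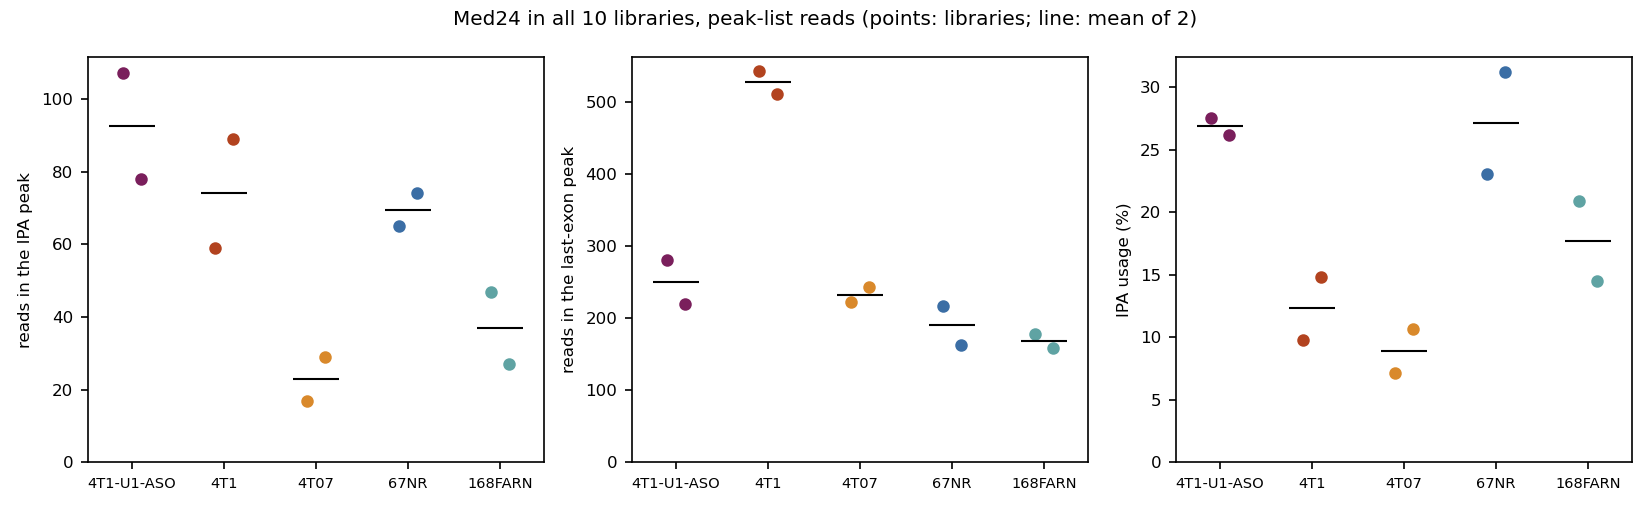
Med24 in the 10 libraries: reads in the IPA peak, reads in the last-exon peak (both unscaled) and IPA usage in percent; points are libraries and lines are means of 2. 4T1 stands apart in last-exon reads, with 543 and 511, and 4T07 has the lowest mean of unscaled IPA reads, with 17 and 29, which overlaps 168FARN, with 47 and 27.

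A second Med24 site, at 98569997 to 98570727 and 3194 bp nearer the last exon, was listed in 4T1 against 168FARN. It was rarely used: 1 and 4 reads in 4T1 and 6 and 7 reads in 168FARN. Last-exon columns held 1086 and 1023 reads in 4T1 and 356 and 318 in 168FARN. Mean usage reached 0.241% ± 0.210 in 4T1, against 1.91% ± 0.351 in 168FARN (SD, n = 2 each), and the authors' deposited table gives -1.93 on the log2 scale with an adjusted p of 0.022, where 74.1% of its 85 sites passed (55.3% lower). IPA reads alone changed by -1.10 ± 0.54 (log2, edgeR, adjusted p = 0.148), where 66.7% passed. This value was -2.22 without 4T1 replicate 2 and -0.55 without 4T1 replicate 1, and passed in neither case (edgeR, adjusted p = 0.0755 and 0.533). By contrast, last-exon reads rose by 1.90 ± 0.16 (edgeR, adjusted p = 1.9e-09), as 46.8% of genes did (64.6% passed). The ratio of IPA reads per unit of size factor was 0.456, with an exact 95% counting interval of 0.127 to 1.36, which includes no change.

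Gtf2f2 was listed at 1 site, on chromosome 14 from 76348096 to 76348228 on the minus strand, in 3 of the 4 comparisons between lines. The site held 3 and 8 reads in 4T1, 6 and 4 in 4T07, 19 and 13 in 67NR and 11 and 9 in 168FARN. Both metastatic lines lay below both non-metastatic lines, on few reads. On average 0.871% ± 0.447 of reads used the site in 4T1 and 1.59% ± 0.456 in 4T07, against 4.98% ± 0.889 in 67NR and 5.10% ± 0.685 in 168FARN (SD, n = 2 each). The authors' deposited tables give log2 fold changes of -1.85 for 4T1 against 67NR (adjusted p of 0.011), -1.87 for 4T1 against 168FARN (0.012) and -1.33 for 4T07 against 168FARN (0.096). The last of these missed the threshold, which 77.2% of the 329 sites of its table passed (62.9% lower).

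In Gtf2f2 the last exon passed in all 3 comparisons, and the site passed in 1. Its last-exon columns gave 538 and 666 reads in 4T1, 308 and 312 in 4T07, 320 and 286 in 67NR and 186 and 186 in 168FARN. 4T1 stood above the other lines, and 168FARN stood below them. Last-exon reads rose by 1.32 ± 0.20 on the log2 scale in 4T1 against 67NR (edgeR, adjusted p = 1.1e-09), by 1.94 ± 0.15 in 4T1 against 168FARN (edgeR, adjusted p = 1.1e-09) and by 0.80 ± 0.13 in 4T07 against 168FARN (edgeR, adjusted p = 0.000606, 52.8% of genes higher). These 3 calls held without any 1 library. IPA reads fell by 1.20 ± 0.50 in 4T1 against 67NR (edgeR, adjusted p = 0.0451), as they did at 68.3% of sites. That call was lost without 4T1 replicate 1, 67NR replicate 1 or 67NR replicate 2 (edgeR, adjusted p = 0.165, 0.256 and 0.0510), and with TMM or DESeq2 (0.0911 and 0.132). IPA reads did not pass in 4T1 or 4T07 against 168FARN (log2 changes of -0.61 ± 0.50 and -0.92 ± 0.55, edgeR, adjusted p = 0.312 and 0.112). Without 1 library these values ran from -1.34 (without 4T1 replicate 2) to -0.19 (without 4T1 replicate 1) in 4T1, and from -1.35 (without 4T07 replicate 1) to -0.54 (without 4T07 replicate 2) in 4T07, and did not pass (edgeR, adjusted p = 0.0769 to 0.763). In these 2 comparisons 51.3% and 59.8% of sites passed as lower (66.7% and 79.8% in either direction).

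In Mnat1 the difference between lines was in the reads of the site. This site on chromosome 12, from 74274343 to 74274875 on the plus strand, was listed in both comparisons with 67NR. It held 10 and 5 reads in 4T1, 3 and 3 in 4T07 and 50 and 51 in 67NR. All 4 libraries of 4T1 and 4T07 were far below both 67NR libraries. The last exon held 176 and 229 reads in 4T1, 156 and 192 in 4T07 and 178 and 150 in 67NR, and these ranges overlap. Mean usage was 3.76% ± 2.29 in 4T1, 1.71% ± 0.246 in 4T07 and 23.7% ± 2.43 in 67NR (SD, n = 2 each).

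In the authors' deposited tables, Mnat1 had log2 fold changes of -2.22 in 4T1 against 67NR and -2.96 in 4T07 against 67NR, each with an adjusted p listed as 0 at 3 decimals. By size the site ranked 19 of 93 and 16 of 176 among sites lower in the metastatic line, so it stood in the upper part of both lists. IPA reads per unit of size factor were 5.35-fold lower in 4T1 and 14.8-fold lower in 4T07 than in 67NR. They fell by 2.40 ± 0.38 on the log2 scale in 4T1 (edgeR, adjusted p = 0.000571) and by 3.83 ± 0.48 in 4T07 (edgeR, adjusted p = 1.3e-13). Last-exon reads were higher in 4T1 by 0.63 ± 0.24 (log2, edgeR, adjusted p = 0.0168). That call was lost without 67NR replicate 1 or 67NR replicate 2 (edgeR, adjusted p = 0.0518 and 0.270) and in the fit over all shared peaks (edgeR, adjusted p = 0.0842). In 4T07 they changed by 0.27 ± 0.16 (edgeR, adjusted p = 0.175), and passed with TMM or without 67NR replicate 1 (0.00570 and 0.0258).

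The Mnat1 result rests on the reads in the comparison tables and is not seen in the peak lists, where peaks over the interval are missing. The lists give 10 reads and no peak over the interval in 4T1, 2 reads and no peak in 4T07, and no peak and 3 reads in 67NR, where the tables give 50 and 51. With each missing peak entered as 0 reads, mean usage from the lists was 2.69% in 4T1 and 0.633% in 4T07, against 0.980% in 67NR. The direction of 4T1 against 67NR turned only on those entries, so no reversed result is read from it. Over all listed sites of 4T07 against 67NR on the chromosomes present, 14.2% and 16.8% of table values above 0 in the 2 67NR libraries had no peak in the library's own list. Among the 4 genes, 20 of 40 IPA values equalled the list, and 17 were above 0 in the table with no peak in the list. Over all listed sites, 53.1% to 80.3% of values equalled the list, by library and comparison. Of table values above 0 there, 13.1% to 54.1% had no listed peak. All 16 Med24 values were equal, while 11 of 12 Gtf2f2 values had no listed peak. The lists are filtered by a rule not given in the sources used here, so a missing peak is not a count of 0, and what the filter removed was not tested.

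Ccnk was listed only in 4T1 against 168FARN, at chromosome 12 from 109417949 to 109418095 on the plus strand. The site held 0 and 1 reads in 4T1 and 6 and 15 in 168FARN. Its last exon held 342 and 384 reads in 4T1 and 389 and 429 in 168FARN. IPA reads were near 0 in both 4T1 libraries, and the 2 libraries of 168FARN differed from each other more than 2-fold. Only the list of 168FARN replicate 2 holds a peak over this site, with 15 reads. The 6 reads of 168FARN replicate 1 have no listed peak. The site took 0.130% ± 0.184 of reads in 4T1, against 2.45% ± 1.31 in 168FARN (SD, n = 2 each). The 0 of 342 reads in 4T1 replicate 1 allows a usage of up to 0.877% by a floor of 3 reads, while its two-sided exact 95% interval reaches 1.07%, both for counting error only. IPA reads per unit of size factor in 4T1 were 0.0565 of those in 168FARN, with an exact 95% counting interval of 0.00137 to 0.351.

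The authors' deposited table gives Ccnk a log2 fold change of -1.98 with an adjusted p of 0.024. IPA reads alone passed (edgeR, adjusted p = 0.0301), but not without 4T1 replicate 1, 4T1 replicate 2 or 168FARN replicate 2 (edgeR, adjusted p = 0.113, 0.0821 and 0.0780) and not with DESeq2 (0.0934). The last exon of Ccnk did not pass, with a log2 change of 0.08 ± 0.15 (edgeR, adjusted p = 0.691), and this value was -0.012 with TMM.

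**Figure D3:**
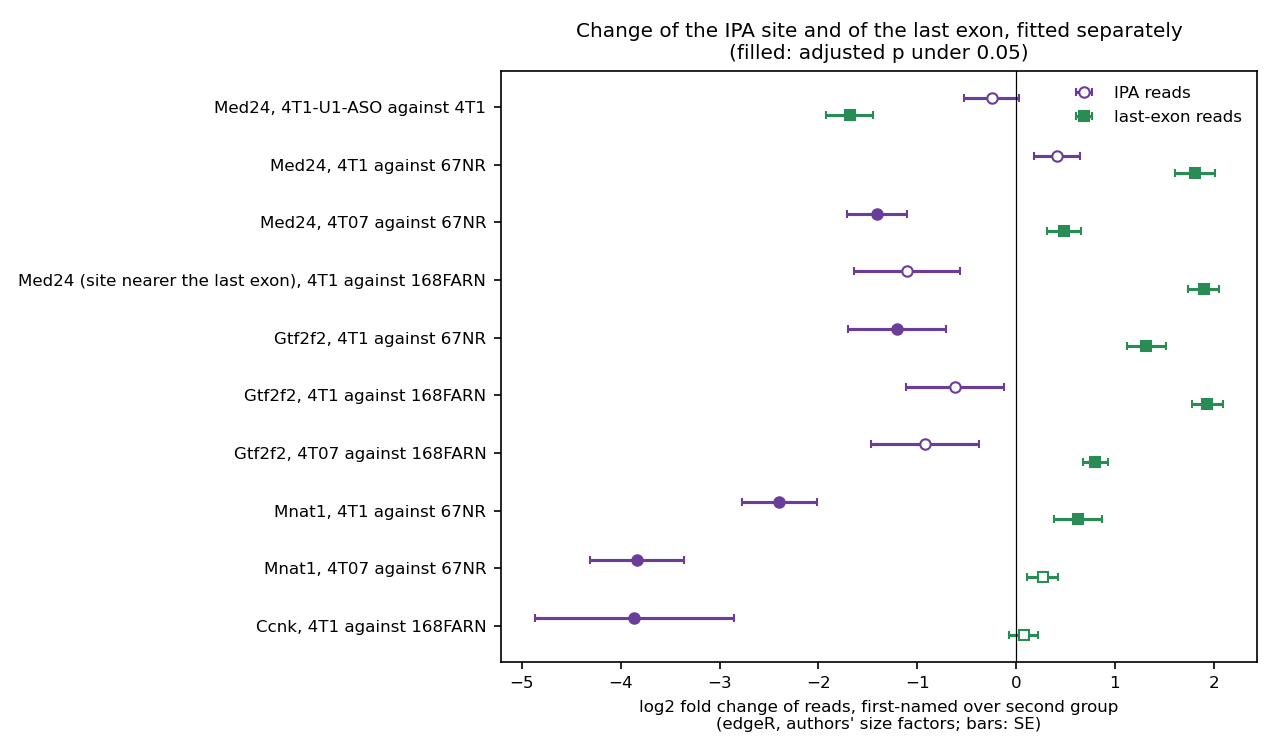
Log2 fold change of IPA reads (circles) and last-exon reads (squares), first-named group over second, for the 10 rows (edgeR with the authors' size factors; bars are SE, filled symbols passed an adjusted p of 0.05). Med24 and Gtf2f2 in 4T1 have last-exon changes of 1.32 to 1.94 against 67NR and 168FARN, while Mnat1 and Ccnk have IPA changes of -2.40 to -3.86. The sign of the Ccnk last-exon value turned with TMM, and that of the Med24 IPA value under U1-ASO turned in the separate fit over shared peaks with TMM.

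Counted over the 9 rows between lines, IPA reads alone were lower in 5 and did not pass in 4, and last-exon reads were higher in 7 and did not pass in 2 (edgeR, authors' size factors). These fits ran over sites that the authors had already selected for a changed ratio, where 51.3% to 73.7% of sites passed as lower on IPA reads and 37.6% to 52.8% of genes as higher on last-exon reads (66.7% to 86.4% and 60.0% to 77.1% in either direction). The 9 rows share genes and libraries, so nothing particular to the 4 genes is read from these counts. The background is less selected in the fit over peaks that all 4 libraries of a comparison list, scaled by TMM. Against 67NR, on 10 chromosomes, 17.2% of peaks passed in 4T1 (8.03% higher) and 27.1% in 4T07 (14.2% higher). Against 168FARN, on 19 chromosomes, 18.3% passed in 4T1 (8.28% higher) and 33.0% in 4T07 (17.1% higher and 15.9% lower). The 4 genes remain selected, since a higher last exon lowers the ratio by which their rows were listed. Nothing particular to them is therefore read from their last-exon calls beside these shares. The last-exon peak of all 4 genes could be followed in all 5 comparisons of that fit.

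Against 67NR, 3 of 4 last-exon peaks were higher in 4T1. Med24 was 3.57-fold higher (log2 1.84 ± 0.25, edgeR, adjusted p = 0.00287) and Gtf2f2 2.51-fold higher (log2 1.33 ± 0.21, edgeR, adjusted p = 0.00556), and both calls held without any 1 library. Ccnk rose by 0.77 ± 0.21 (edgeR, adjusted p = 0.0408), a call lost without 4T1 replicate 1, 67NR replicate 1 or 67NR replicate 2 (edgeR, adjusted p = 0.0744, 0.217 and 0.330). Against 168FARN, 2 of 4 were higher in 4T1, Gtf2f2 by 3.76-fold (log2 1.91 ± 0.19, edgeR, adjusted p = 0.000569) and Med24 by 3.68-fold, while Mnat1 and Ccnk did not pass, with log2 changes of -0.25 ± 0.18 and 0.06 ± 0.16. The sign of the Ccnk value turned with scaling by totals (-0.021) and without 4T1 replicate 1 (-0.0041).

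4T07 showed a mixed picture for the same peaks. Against 67NR, 1 of 4 passed, Med24 with a log2 change of 0.59 ± 0.20 (edgeR, adjusted p = 0.0447), and this was lost without either 4T07 library (edgeR, adjusted p = 0.262 and 0.200) and with the authors' size factors (0.0963). Mnat1 and Gtf2f2 had log2 changes of 0.38 and 0.34 (edgeR, adjusted p = 0.161 and 0.215) and passed without 67NR replicate 1 (0.00261 and 0.0214). Ccnk had -0.09, a sign that turned without 4T07 replicate 2 or 67NR replicate 1. Against 168FARN, all 4 passed, 2 in each direction. Gtf2f2 rose by 0.82 ± 0.17 (edgeR, adjusted p = 0.00329) and Med24 by 0.54 ± 0.15 (edgeR, adjusted p = 0.0146). Ccnk fell by 0.91 ± 0.13 (edgeR, adjusted p = 0.000183) and Mnat1 by 0.61 ± 0.14 (edgeR, adjusted p = 0.00444). Med24 was not called without 4T07 replicate 1 or 4T07 replicate 2 (edgeR, adjusted p = 0.0928 and 0.0583), nor Mnat1 without 4T07 replicate 1 (0.0558).

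Under U1-ASO, the last exons of the 4 genes went different ways. Mnat1 held 371 and 401 reads in 4T1-U1-ASO and 176 and 227 in 4T1, so its treated libraries lay above. Ccnk held 260 and 212 reads in 4T1-U1-ASO and 342 and 383 in 4T1, so its treated libraries lay below. Gtf2f2 held 295 and 256 in 4T1-U1-ASO and 269 and 333 in 4T1, with overlap. In the TMM fit Mnat1 had a log2 change of 0.84 ± 0.18 (edgeR, adjusted p = 0.0172), Ccnk -0.72 ± 0.19 (edgeR, adjusted p = 0.0341) and Gtf2f2 -0.22 ± 0.18 (edgeR, adjusted p = 0.398). With the authors' size factors the Mnat1 call was lost (0.35, edgeR, adjusted p = 0.265) and Gtf2f2 passed as lower (-0.71, edgeR, adjusted p = 0.0426). With totals the Ccnk call was lost (-0.45, edgeR, adjusted p = 0.113) and the sign of Gtf2f2 turned (0.042). Leaving out 1 library gave TMM log2 changes of 0.78 to 0.92 for Mnat1 and -0.88 to -0.57 for Ccnk. The Mnat1 call did not hold in all of these fits and the Ccnk call in none, where fewer of all peaks passed too.

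**Figure D4:**
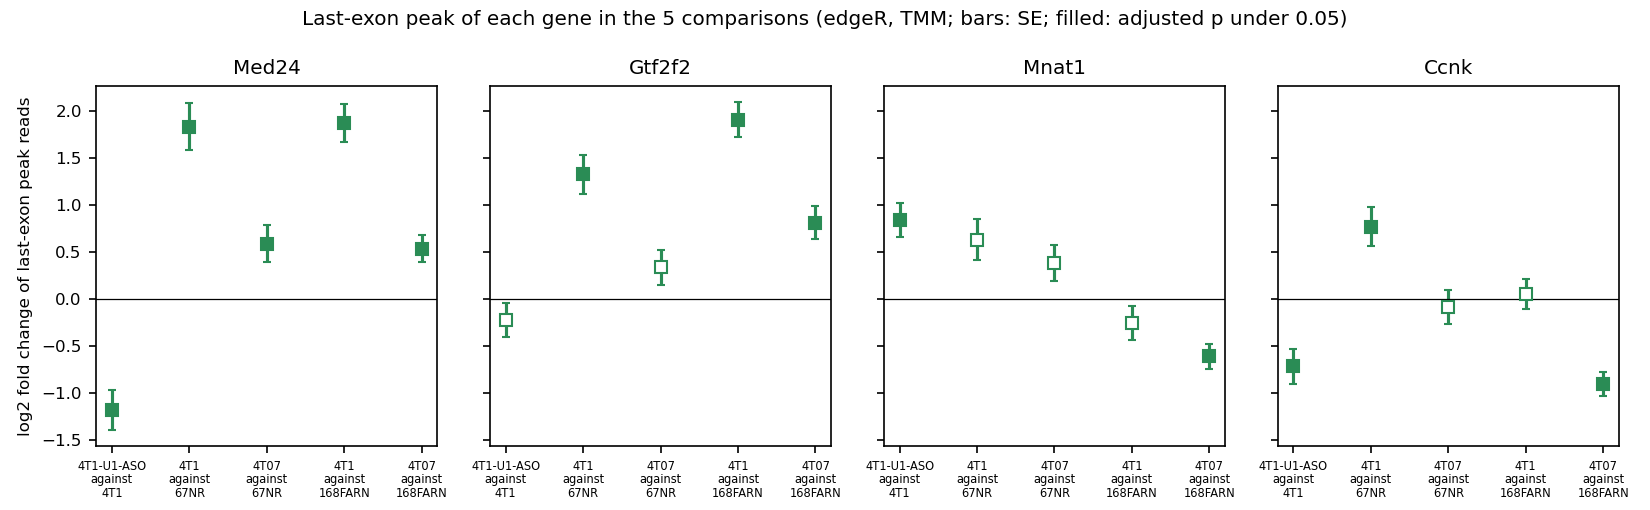
Log2 fold change of the last-exon peak of each gene in the 5 comparisons, first-named group over second (edgeR with TMM over peaks listed in all 4 libraries; bars are SE, filled symbols passed an adjusted p of 0.05). Med24 and Gtf2f2 reach 1.33 to 1.91 in the comparisons of 4T1 with 67NR and 168FARN; the signs of Gtf2f2 under U1-ASO and of Ccnk in 4T1 against 168FARN turned with scaling by totals.

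The last-exon columns do not all count the same thing. For Gtf2f2, the value in the tables between lines was 2 times the reads of 1 peak in the library's own list in 12 of 12 values. That peak lies at 76296695 to 76297462, 51401 bp from the site. For Med24 the last-exon peak lies at 98565897 to 98566395. Its U1-ASO table gave 543 and 511 reads for the 4T1 libraries, equal to the peak, while the tables between lines gave 1086 and 1023 for the same libraries. Among 42 genes listed both under U1-ASO and in a table with 4T1, the ratio of their last-exon reads was within 2% of 1 in 22 and within 2% of 2 in 8. Why some last exons were counted this way was not tested.

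Such counting cancels in fold changes of a gene, but it lowers usage and enters the fits of last-exon reads as extra reads. For the Gtf2f2 last exon in 4T1 against 67NR, the adjusted p was 1.1e-09 with the column and 6.8e-08 with peak reads (edgeR). For Med24 in 4T07 against 67NR it was 0.0400 with the column and 0.0484 with peak reads (edgeR). With last-exon reads taken from the peak, Med24 usage was 12.3% ± 3.56 in 4T1, 8.89% ± 2.51 in 4T07 and 27.1% ± 5.78 in 67NR (SD, n = 2 each). Gtf2f2 stood at 1.72% ± 0.879 in 4T1, 3.12% ± 0.884 in 4T07, 9.47% ± 1.61 in 67NR and 9.70% ± 1.24 in 168FARN (SD, n = 2 each). At the Med24 site nearer the last exon it was 0.480% ± 0.419 in 4T1 and 3.74% ± 0.676 in 168FARN (SD, n = 2 each). All 10 rows kept their direction in the edgeR test with these reads.

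Of 127 genes for general transcription factors, Mediator, polymerase II subunits and elongation factors, 13 were listed under U1-ASO, with 18 sites, Med24 included. IPA relative to the last exon was higher at 16 sites and lower at 2 in the authors' deposited table, and 11 of the higher and 1 of the lower sites passed 0.05. Over all listed sites 87.6% were higher, and 51.6% passed as higher and 7.62% as lower. Nothing particular to these genes is read from the counts. For the 18 sites the median log2 fold change was 1.98, beside 1.85 over all listed sites. The 5 genes with the largest higher changes were Taf15, a TFIID-associated RNA-binding protein, Gtf2a2, a TFIIA subunit, Supt6, an elongation factor and histone chaperone, the Mediator subunit Med20 and the polymerase subunit Polr2g. In the authors' deposited table their log2 values were 2.47 for Taf15, 2.37 for Gtf2a2, 2.19 for Supt6 and Med20, and 2.18 for Polr2g. Several of these rest on few IPA reads. In 4T1-U1-ASO that Taf15 site held 17 and 19, Gtf2a2 10 and 7, Supt6 7 and 6 and Polr2g 7 and 8. In 4T1 they held 0 and 0, 0 and 1, 1 and 0, and 2 and 0. Med20 usage was 16.1% ± 0.471 in 4T1-U1-ASO and 2.94% ± 1.86 in 4T1 (SD, n = 2 each), and its IPA reads were 26 and 24 in 4T1-U1-ASO and 2 and 6 in 4T1. Here the site gained reads, unlike the site in Med24: IPA reads of Med20 rose by 2.04 ± 0.56 on the log2 scale (edgeR, adjusted p = 0.00178). Polr2b, the second-largest polymerase subunit, was listed at 3 sites, all higher, on last exons of 140 and 131 reads in 4T1-U1-ASO and 242 and 345 in 4T1. As in Med24 with the authors' size factors, its last-exon reads fell (1.69 on the log2 scale, edgeR, adjusted p = 0.000345) while IPA reads did not pass at these 3 sites (edgeR, adjusted p = 0.481 to 0.799). In Med24 the division between site and last exon rested on scaling. Values with other scalings are not given for Polr2b or Med20. Polr2b was chosen after its values were seen.

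Lower under U1-ASO were Med1, another Mediator subunit, and a further site in Taf15. Med1 had 4 and 2 IPA reads in 4T1-U1-ASO and 17 and 11 in 4T1, and the authors' deposited table gives -2.06 with an adjusted p of 0.027. For that Taf15 site the authors' deposited table gives -1.54 with an adjusted p of 0.091, above the threshold. Between lines the same 127 genes gave 3 sites in 4T1 against 67NR, 3 in 4T07 against 67NR, 4 in 4T1 against 168FARN and 3 in 4T07 against 168FARN, all lower in the metastatic line. Over all listed sites 75.3% to 82.2% were lower in these comparisons. Of these rows, 9 are those of the members counted above, and the rows share libraries. Besides the 4 members the listed genes were Med1 in 4T07 against 67NR, with -1.57 and an adjusted p of 0.086 in the authors' deposited table, Med14, also a Mediator subunit, and the TFIID subunit Taf8. Med14 usage was 2.24% ± 1.35 in 4T07 and 3.09% ± 0.791 in 4T1, with 20.4% ± 1.09 in 168FARN (SD, n = 2 each). In the authors' deposited tables Med14 had -2.25 in 4T07 (adjusted p of 0.002) and -1.75 in 4T1 (0.070). For Taf8, mean usage was 9.03% ± 2.77 in 4T07, against 30.6% ± 7.86 in 168FARN (SD, n = 2 each), with an adjusted p of 0.012 in the authors' deposited table.

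Sites with usage most like each member over the 4 libraries of a comparison were found among sites with mean reads within 2-fold. For Med24 under U1-ASO these were Ppm1a, Thumpd1 and Prc1, at distances of 5.17, 6.18 and 6.69 percentage points among 722 candidate sites. For Mnat1 in 4T07 against 67NR they were Rilpl2, Zfp444 and Pole, at 2.69, 4.63 and 5.75 points among 96. For Gtf2f2 in 4T1 against 67NR they were Plcb3, Spop and Ccnb1, at 1.11 to 1.49 points among 34. The sites nearest to that of Ccnk in 4T1 against 168FARN were in Uggt1, Med24 and Nup37, at 1.05, 1.24 and 1.58 points among 35.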

How the data were processed

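3′-end reads were measured in 10 libraries. The members, gene lists and tests were chosen with earlier results of these data known. Build mm9 is named in the submitters' processing notes, beside DESeq2 1.4.5, bedtools 2.17.0, SAMtools 1.1 and Bowtie2 2.2.5, with no role stated. Per the file headers, the comparison tables hold log2 fold changes, a test score, p-values and adjusted p-values, with a normalized signal for IPA site and last exon in each library (the authors' reads over a size factor). The peak lists were deposited by the authors as read counts per peak, after filtering by an unstated rule. Signs were deposited both ways: the sign was turned here for tables against 67NR, so that values are metastatic line over non-metastatic line. Named genes are all rows of the 4 members, and for the gene lists every listed gene where a comparison had at most 10, otherwise the 5 largest changes in each direction, and the 3 sites of other genes nearest in usage.

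Whole reads were recovered from the signals (100% of values within 0.1 read) and fitted by quasi-likelihood (edgeR 4.0.16, R 4.3.3; at least 10 reads, Benjamini-Hochberg, threshold 0.05), separately for the ratio, IPA reads and last-exon reads, over all listed sites or genes of a comparison. Since those were selected by the authors, these adjusted p-values are not independent evidence. Peaks that all 4 libraries list were fitted with TMM, chosen after seeing the data. Tests on simulated data covered only the fits with the authors' size factors in the morpholino comparison, and a TMM fit over shared peaks. Fits of listed sites between lines, and the alternative fits, were not simulated. DESeq2 1.42.0, other scalings, filters, blocks and leaving out libraries were alternatives. Intervals cover counting error only, since PCR reads are not independent molecules. Where a library is left out, its lone partner is assumed to vary like the other group. Positions are 1-based on mm9. No genome was used.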

Additional observations from a re-analysis of the deposited data

Results flagged for a closer look

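Between a member's listed IPA site and its last exon, both 4T1-U1-ASO peak lists hold a peak of at least 30 reads that exceeds both 4T1 lists in 2 genes, outside the deposited comparison tables of these genes. In Gtf2f2, a peak at 76317296 to 76317542 on chromosome 14 held 45 and 40 reads in 4T1-U1-ASO, and the 4T1 lists hold no peak there. In Mnat1, a peak at 74280188 to 74280284 on chromosome 12 held 97 and 99 reads in 4T1-U1-ASO, while the 4T1 lists give no peak and 40 reads. Peaks under 30 reads were left aside, such as 1 in Med24 at 98568728 with 9 and 8 reads in 4T1-U1-ASO and 0 and 2 in 4T1. The difference was not tested. The 4T1-U1-ASO lists also hold more peaks in all, 100236 and 98270, against 54210 and 66543 in 4T1, and their part in these 2 peaks was not tested. A peak missing from a filtered list is not a count of 0.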

How the results depend on the processing

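The 10 ratios of IPA to last exon kept their direction in every alternative fit. Usage of Mnat1 in 4T1 against 67NR turned with IPA reads from the peak lists, where missing peaks were counted as no reads. No reversed result is read from that. At a deposited adjusted p of at most 0.01, 5 ratios no longer passed: Med24 under U1-ASO (1.31), Gtf2f2 in 4T1 against 67NR (-1.85) and 168FARN (-1.87), and in 4T1 against 168FARN Med24 (-1.93) and Ccnk (-1.98). On recovered reads, both ratios that missed the deposited threshold passed, Med24 in 4T1 against 67NR at -1.40 (authors' size factors, TMM, both filters, last-exon reads from the lists) and -1.41 (DESeq2 and library block), and Gtf2f2 in 4T07 against 168FARN at -1.72 and, with DESeq2, -1.74. Those fits called every site they tested, 122 of 122 and 329 of 329 in these comparisons with the authors' size factors. The authors had selected the sites for a changed ratio, so passing there is no support for either ratio. Leaving out 1 library gave -1.75 to -1.07 for Med24 and -2.04 to -1.45 for Gtf2f2.

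Replicate numbers were not taken to pair libraries, since there are only 2 pairs and no label says so; deviations of same-numbered libraries correlated at -0.00626 under U1-ASO, and at 0.368, 0.0653, 0.466 and 0.109 in 4T1 and 4T07 against 67NR, then 168FARN. With a replicate block, ratios were -1.39 for Med24 in 4T1 against 67NR and -1.72 for Gtf2f2 in 4T07 against 168FARN, IPA reads of Med24 in 4T1 against 67NR passed at 0.41, and those of Gtf2f2 there did not, at -1.19. Among peaks listed in all 4 libraries the block took the calls to 2994, against 1398 without it, in 4T1 against 67NR, and to 6415, against 3187, in 4T1 against 168FARN, where the unlisted Med24 site then passed at 1.23.

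IPA reads passed for Med24 in 4T1 against 67NR with TMM (0.63), and did not for Gtf2f2 there with TMM (-0.99) or DESeq2 (-0.96) or for Ccnk with DESeq2 (-4.11). Last-exon reads of Mnat1 passed in 4T07 against 67NR with TMM (0.56) and not in 4T1 against 67NR over shared peaks (0.63). Signs turned for Med24 IPA reads under U1-ASO (0.24 over shared peaks with TMM, -0.25 there with the authors' size factors), the Gtf2f2 last exon under U1-ASO with totals (0.042), and the Ccnk last exon in 4T1 against 168FARN (-0.012 with TMM, -0.021 with totals). The causes were not tested. Without 1 library, IPA reads ranged from -6.30 to -3.12 for Ccnk and from -1.92 to -0.78 for Gtf2f2 in 4T1 against 67NR. Last-exon reads ranged from 0.27 to 0.73 for Med24 and 0.13 to 0.43 for Mnat1 in 4T07 against 67NR, and from 0.48 to 0.79 for Mnat1 in 4T1 against 67NR. Shared-peak values crossed 0 for the Med24 site under U1-ASO (-0.014 to 0.45) and the Ccnk last exon in 4T07 against 67NR (-0.22 to 0.057) and 4T1 against 168FARN (-0.0041 to 0.11).

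Usage moved with last-exon reads from the peak lists, to 12.3% in 4T1, 8.89% in 4T07 and 27.1% in 67NR for Med24, 0.480% in 4T1 and 3.74% in 168FARN for its other site, and 1.72% in 4T1, 3.12% in 4T07, 9.47% in 67NR and 9.70% in 168FARN for Gtf2f2. With IPA reads from those lists, and missing peaks counted as no reads, Gtf2f2 was 0% in 4T1, 4T07 and 168FARN and 2.80% in 67NR. On the same terms Mnat1 was 2.69% in 4T1, 0.633% in 4T07 and 0.980% in 67NR. These values, and the turned direction of Mnat1 in 4T1 against 67NR, rest on that counting and are not estimates of usage. Listed sites past the threshold under U1-ASO numbered 925, and 367 at 0.01 or 1561 at 0.1 and in the edgeR and DESeq2 fits with all libraries (1217 to 1496 without 1 library). At 0.01 they numbered 36, 110, 36 and 138 in 4T1 and 4T07 against 67NR, then 168FARN.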
